A study of Caenorhabditis elegans with 10 samples.

Results

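The genes described here encode the proteins of the small subunit of the cytosolic ribosome of Caenorhabditis elegans. They were chosen as every gene whose WormBase symbol is rps- followed by a number, after the row names of the count tables had been matched to gene symbols. There were 31 such genes among 46746 genes in all. RNA of whole worms was sequenced from 5 libraries of strain F01D4.5(baf20), which carries the allele baf20 of the gene F01D4.5, and from 5 libraries of the laboratory wild type N2. Worms of both strains were grown on OP50 bacteria at 20 °C and were collected 48 h after L1 arrest, with 1000 to 2000 worms pooled in each sample. The sources used here do not say what baf20 does to F01D4.5. The comparison asks which of these genes differ in RNA level between the strains.

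The small subunit binds the messenger RNA, and in its decoding centre the codons are matched to transfer RNAs. It consists of a head, which closes over the messenger RNA channel, and a body with a platform. Ribosomal protein messengers are among the most abundant in growing animals. The genes are taken below by the place of their proteins, the head first.

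The deposited tables list counts by transcript name, so a gene with several annotated transcripts has several rows. Of the 31 genes, 12 had 1 row and 19 had between them 50 rows. In 15 of the 19 the row names differed only by a final number, which in WormBase names marks the same coding sequence with different transcript ends. In the other 4 genes, rps-6, rps-8, rps-22 and rps-23, the names also differed by a letter, which marks different coding sequences. Only 24 of the 50 rows held any count. Over all 10 libraries the 12 single-row genes held 4254880 counts and the 19 multi-row genes 18452 counts, which is 0.432% of the counts of all 31 genes. Every tested multi-row gene had over 90% of its counts in 1 row.

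The level of a gene in CPM, counts per 1e6 counts of a library, differed accordingly between the kinds of gene. The median over genes of the mean CPM was 3385 for the 12 single-row rps genes and 4.13 for the 19 multi-row rps genes. The genes of the large subunit, named rpl- or rla-, showed the same division, with medians of 2504 CPM for 18 single-row genes and 14.1 CPM for 31 multi-row genes. Among all protein-coding genes the medians were 4.89 CPM for 14390 single-row genes and 0.664 CPM for 5258 multi-row genes. Multi-row genes made up 61.3% of the rps genes and 26.8% of all protein-coding genes. The values of multi-row genes are therefore read as values of the rows and not as levels of the genes, and the 2 kinds are described apart. The sources used here do not say how reads that fit several rows were counted, and the part of this step in the values was not tested.

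**Figure D1:**
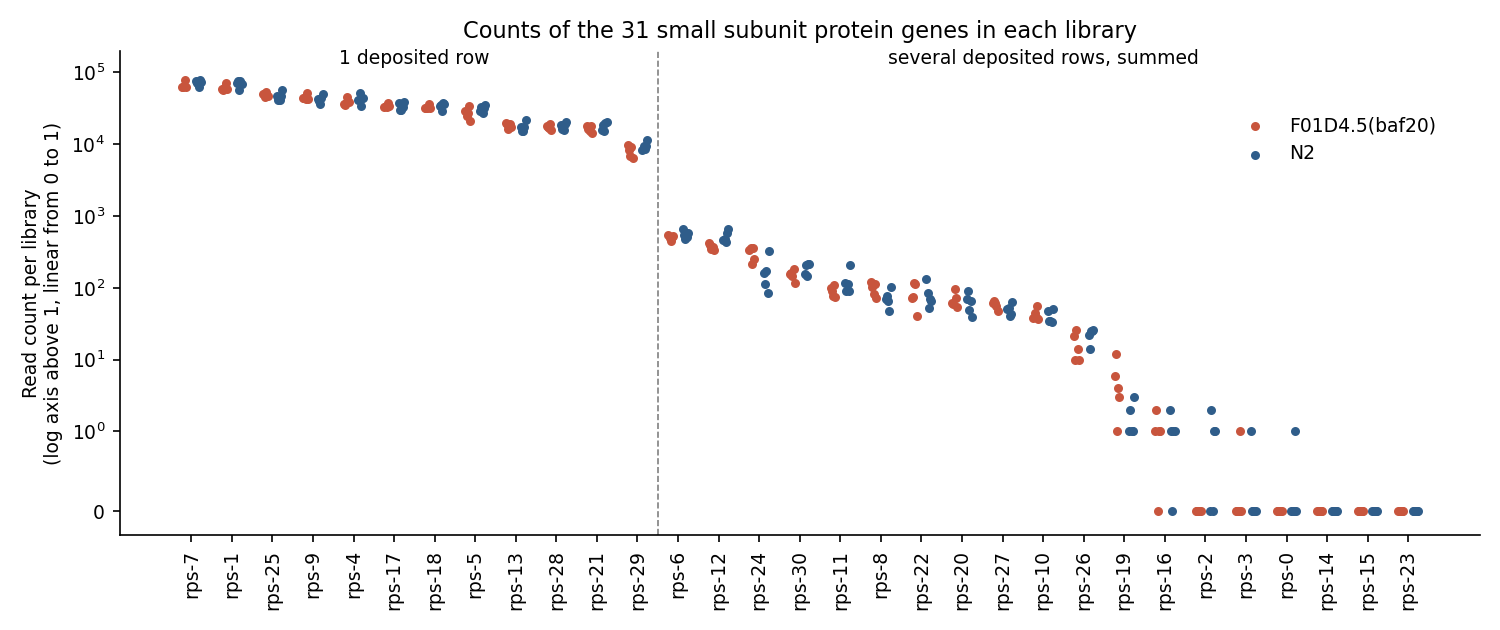
Read counts of all 31 small subunit protein genes in each library, on an axis that is logarithmic above 1 count and linear from 0 to 1. Red points are the 5 F01D4.5(baf20) libraries and blue points the 5 N2 libraries. The 12 genes with 1 deposited row, left of the dashed line, lie at 6375 counts or more in every library, and the 19 genes with several rows at 663 counts or fewer.

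The 31 genes also share features that did not enter their choice. In the WBcel235 annotation, 10 lie on chromosome IV, 9 on III, 8 on I, 3 on V, 1 on II and none on X. As shares this is 32.3% on IV, 29.0% on III, 25.8% on I, 9.68% on V and 3.23% on II. Of all protein-coding genes 16.6% lie on IV, 13.2% on III, 14.4% on I, 25.1% on V, 17.1% on II and 13.6% on X. Their exon count is 3 in 20 of 31 genes. The proteins have 56 residues (rps-29) to 276 residues (rps-0). Exons of 4 genes overlap those of another gene. These are rps-4 with Y43B11AR.3 over 21 bases and rps-20 with cel-mir-354 over 110 bases on the same strand, and rps-16 with T01C3.11 over 12 bases and rps-18 with hhat-2 over 50 bases on opposite strands. The RefSeq gene table uses another symbol for 4 of them, rpsa-1 for rps-0, rps-3A for rps-1, rps-15A for rps-22 and fau-1 for rps-30.

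Library totals ranged from 9059910 to 11056979 counts. The counts of F01D4.5 averaged 3.23 ± 0.738 CPM in F01D4.5(baf20) and 10.8 ± 2.93 CPM in N2 (SD, n = 5 each), a log2 fold change of -1.74 ± 0.241 (SE), with an adjusted p of 0.0264 by the quasi-likelihood test of edgeR, adjusted after Benjamini and Hochberg. The highest F01D4.5(baf20) library had 4.03 CPM and the lowest N2 library 6.44 CPM, so these values do not go against the labels. F01D4.5 has 2 rows, so they are read as values of rows and not as levels of the gene. The first principal component, 56.2% of the variance of log CPM, set the 2 libraries numbered 5 apart from the other 8, and the second, 16.9%, set F01D4.5(baf20) libraries 1 and 2 apart. The summed level of 6 epidermis markers (dpy-7, dpy-17, rol-6, bli-1, mlt-10 and noah-2, all detected) was 281 CPM in F01D4.5(baf20) library 5 and 612 CPM in N2 library 5. In libraries 1 to 4 it was 25.9 to 64.9 CPM in F01D4.5(baf20) and 44.1 to 134 CPM in N2. All 6 of these markers had a negative log2 fold change, with a median of -1.33, and 0 passed at an adjusted p under 0.05 by edgeR. The summed level of 4 oocyte markers (oma-1, pos-1, puf-11 and rme-2, the last at 0 counts) was 971 CPM in F01D4.5(baf20) library 5 and 740.0 CPM in N2 library 5. In libraries 1 to 4 it was 1396 to 1843 CPM in F01D4.5(baf20) and 1202 to 1628 CPM in N2. The 3 oocyte markers that were tested had positive log2 fold changes, with a median of 0.31, and 0 passed. All 4 sperm markers tested had positive log2 fold changes (median 0.34). All tested markers of intestine (3, median -0.21), muscle (3, median -0.27) and pharynx (2, median -0.32) were negative. Germline markers gave 3 positive values and 1 negative, and the 1 tested neuron marker was positive. Again 0 passed, and 2 sperm, 1 muscle and 1 epidermis marker had an unadjusted p under 0.05 by edgeR. Some of these markers are multi-row genes. Marker values of several cell types thus leaned apart between the strains as well, and the part of this in the rps values was not tested. Where a log2 fold change moved clearly without 1 or both of the libraries numbered 5, a value without them is also given.

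No small subunit protein gene passed the test between the strains. Of the 23 genes with enough counts to be tested, 0 passed at an adjusted p under 0.05 by edgeR, where 8 of all 12331 tested genes did (0.0649%). DESeq2 also called 0 of them, where it called 0.27% of all genes. At an unadjusted p under 0.05, edgeR gave 1 gene with a higher value in F01D4.5(baf20), rps-24, and 1 with a lower value, rps-12. Over all tested genes these shares were 3.52% for higher and 2.24% for lower values, 5.76% together. DESeq2 gave 2 of the rps genes at that level, and also 5.76% of all genes. In none of the 23 genes were the CPM of the 5 F01D4.5(baf20) and the 5 N2 libraries free of overlap, against 1.44% of all tested genes. The tests compare RNA of whole worms, in which fewer cells of a type and less RNA per cell cannot be told apart. The 8 genes that were not tested are all multi-row genes.

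Taken as one quantity, the 12 single-row genes held shares that differed between strains by less than the spread between libraries. Their summed share of all counts was 4.18 ± 0.184% in F01D4.5(baf20), with a range of 3.99% to 4.42%, and 4.30 ± 0.303% in N2, with a range of 3.996% to 4.67% (SD, n = 5 each). The 2 ranges overlapped. Of the 12 genes, 4 had a positive and 8 a negative log2 fold change, with a median of -0.08, beside a median of 0.02 and a share of 46.8% negative values over all tested genes. The summed CPM of the single-row rps genes relative to that of the 18 single-row rpl and rla genes was 0.933 ± 0.00771 in F01D4.5(baf20) and 0.957 ± 0.0132 in N2. The 2 ranges did not overlap, with 0.923 to 0.9406 in F01D4.5(baf20) and 0.9413 to 0.969 in N2. This ratio was computed with the values known and was not tested.

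Among the single-row genes of the head, rps-25 encodes a protein that yeast and human cells need for initiation at some viral internal entry sites. It lies on chromosome IV from 5947093 to 5947605 on the minus strand. Its level was 5147, 5001, 4606, 4714 and 5237 CPM in F01D4.5(baf20) libraries 1 to 5, against 4195, 4307, 4402, 4222 and 5848 CPM in N2 libraries 1 to 5. N2 library 5 was the highest of the 10 libraries, while the other 4 N2 libraries were the lowest. The strains differed by a log2 fold change of 0.10 ± 0.110 (SE), with an adjusted p of 0.937 by the same edgeR test and adjustment, which gave every adjusted p below. Without N2 library 5 it was 0.21, with an unadjusted p of 0.0220 and an adjusted p of 0.636, and the groups no longer overlapped.

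The protein of rps-5, also in the head, lies beside the exit of the messenger RNA channel. The gene had 2974, 2438, 2733, 3060.0 and 2347 CPM in the F01D4.5(baf20) libraries, against 2641, 3420.3, 2968, 2889 and 3621 CPM in the N2 libraries. The 2 lowest values were both from F01D4.5(baf20), the 2 highest both from N2, and the groups overlapped between them. Between strains this was a log2 fold change of -0.20 ± 0.118 (SE) at an adjusted p of 0.899, and -0.09 without the 2 libraries numbered 5.

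The smallest protein of the set, a zinc-binding protein of the head, is encoded by rps-29. Its levels were 1009.7, 823, 679.5, 817 and 721 CPM in F01D4.5(baf20), against 741.5, 961, 914, 865 and 1189 CPM in N2. The lowest library was F01D4.5(baf20) library 3 and the highest N2 library 5. The log2 fold change of -0.21 ± 0.145 (SE, adjusted p = 0.903) was the largest in size among the single-row genes, and was -0.07 without the 2 libraries numbered 5.

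The remaining single-row genes of the head, rps-17, rps-18 and rps-28, had averages that lay within 1 SD of each other between strains. rps-17 averaged 3474 ± 235.004 CPM in F01D4.5(baf20) and 3342 ± 379 CPM in N2. rps-18 averaged 3301 ± 180.1 CPM in F01D4.5(baf20) and 3425 ± 304 CPM in N2, and without a stated strand setting reads of hhat-2, which overlaps it on the other strand, cannot be told apart from its own. rps-28 averaged 1754 ± 47.5 CPM in F01D4.5(baf20) and 1787 ± 199 CPM in N2 (SD, n = 5 each for all 3). Their log2 fold changes were 0.06, -0.05 and -0.03 in that order, and the smallest of the 3 adjusted p-values was 0.949. Without N2 library 5 they were 0.13, -0.01 and 0.05, so that the value of rps-28 changed sign.

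Of the single-row genes whose proteins sit in the body and platform, rps-1 encodes a platform protein near the messenger RNA exit. It lies on chromosome III from 4475918 to 4476876 on the plus strand. It had 5987, 5645, 6346, 6303 and 6611 CPM in F01D4.5(baf20), against 6355, 7840.0, 6181, 6975 and 7217 CPM in N2. The 3 highest libraries were all N2, and N2 libraries 1 and 3 fell within the range of the other strain. The averages were 6178 ± 371 CPM in F01D4.5(baf20) and 6914 ± 671 CPM in N2 (SD, n = 5 each), and the log2 fold change between them was -0.16 ± 0.0934 (SE, adjusted p = 0.896). This was the smallest unadjusted p among the single-row genes, 0.110.

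The protein of rps-7 belongs to the body, and its gene had the highest mean CPM of the 31. Its levels were 6505, 6194, 6612, 6976 and 7076 CPM in F01D4.5(baf20), against 6836, 7427, 6760.5, 7055 and 7722 CPM in N2. The 3 lowest libraries were F01D4.5(baf20), the 2 highest were N2, and the groups overlapped in between. On the log2 scale the strains differed by -0.10 ± 0.0814 (SE, adjusted p = 0.925).

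The protein of rps-9 lies near the messenger RNA entry. Its gene had 4515, 4475, 4289, 4635 and 4829.6 CPM in F01D4.5(baf20), against 3868, 4093, 3936, 3965 and 5175 CPM in N2. As for rps-25, N2 library 5 was the highest of all 10 and the other 4 N2 libraries were the lowest. This gave a log2 fold change of 0.11 ± 0.0998 with its SE and an adjusted p of 0.927. Without N2 library 5 it was 0.20, with an unadjusted p of 0.0230.

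The proteins of rps-13 and rps-21 are also part of the body and platform. rps-13 had 1999, 1892, 1618, 1693 and 1968 CPM in F01D4.5(baf20), against 1599, 1566, 1674, 1590.2 and 2281 CPM in N2. Again N2 library 5 was the highest, and N2 libraries 1, 2 and 4 were lower than every F01D4.5(baf20) library. rps-21 had 1829, 1632, 1528, 1588 and 1594 CPM in F01D4.5(baf20), against 1416, 1885, 1629, 1819.9 and 2099 CPM in N2. Here the N2 libraries held both the lowest value and the 2 highest. The log2 fold changes were 0.07 ± 0.124 for rps-13 (SE, adjusted p = 0.949) and -0.11 ± 0.113 for rps-21 (SE, adjusted p = 0.930). Without N2 library 5 they were 0.19 for rps-13, with an unadjusted p of 0.0568, and -0.05 for rps-21. The last single-row gene, rps-4, encodes a protein of the body. It averaged 3932 ± 340.4 CPM in F01D4.5(baf20) and 4272 ± 721 CPM in N2 (SD, n = 5 each). The log2 fold change of rps-4 was -0.12 ± 0.123 (SE, adjusted p = 0.936), and -0.02 without N2 library 2, the highest library for this gene.

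**Figure D2:**
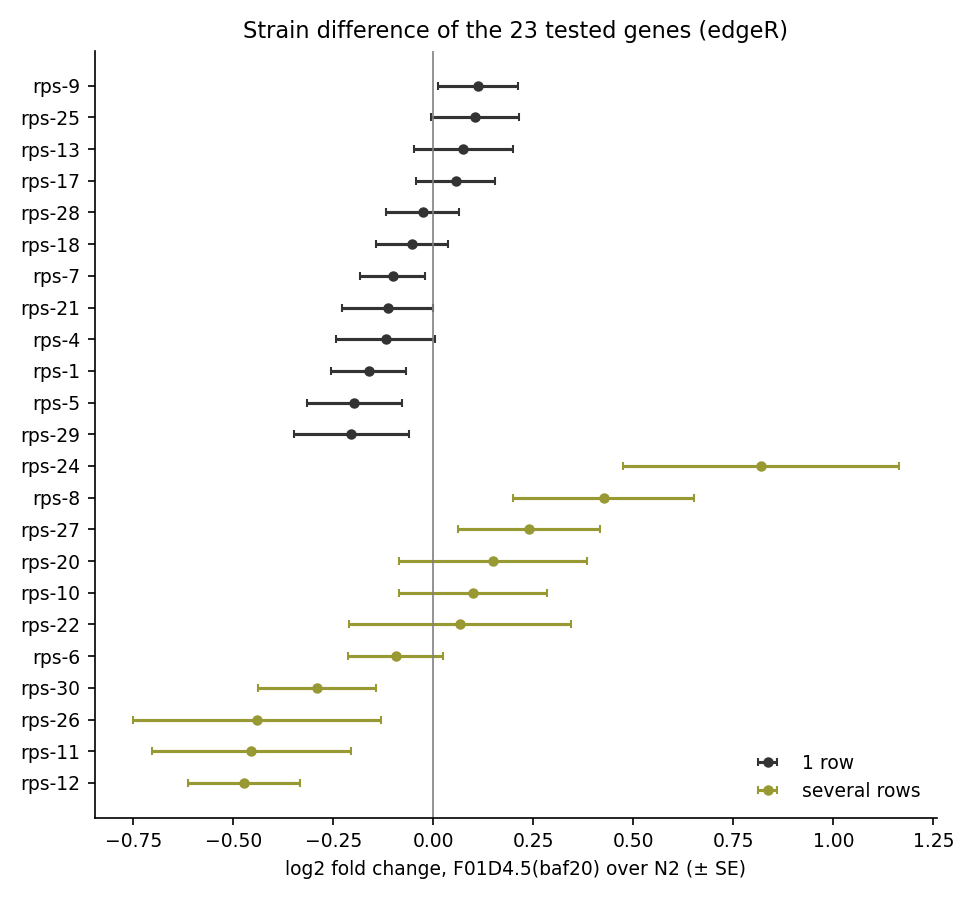
Log2 fold change, F01D4.5(baf20) over N2, with its standard error from edgeR for the 23 tested small subunit protein genes. Dark points are the 12 single-row genes, which lie between -0.21 and 0.11, and olive points the 11 multi-row genes, which lie between -0.47 and 0.82.

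Divided by the length of the annotated exons, the 12 single-row genes spanned a wider range of levels than the strains did for any of them. The highest level was that of rps-25, at 12353 ± 682 CPM per kb in F01D4.5(baf20) and 11487 ± 1763 CPM per kb in N2 (SD, n = 5 each). It was followed by rps-7, at 9465 ± 509 CPM per kb in F01D4.5(baf20) and 10156 ± 577 CPM per kb in N2. The lowest were rps-29, at 3057 ± 482 CPM per kb in F01D4.5(baf20) and 3524 ± 620 CPM per kb in N2, and rps-13, at 3618 ± 335 CPM per kb in F01D4.5(baf20) and 3436 ± 599 CPM per kb in N2. In the N2 order rps-25, rps-7, rps-1, rps-17, rps-28, rps-9, rps-21, rps-18, rps-4, rps-5, rps-29 and rps-13, the ranges of neighbours overlapped in every pair except rps-7 above rps-1. Lengths of 252 to 865 bases enter this scale, and it rests on the current annotation. By mean CPM, without length, 11 of the 12 were among the 100 genes with the most reads, from rps-7 in place 3 to rps-21 in place 68, and rps-29 was in place 142.

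**Figure D3:**
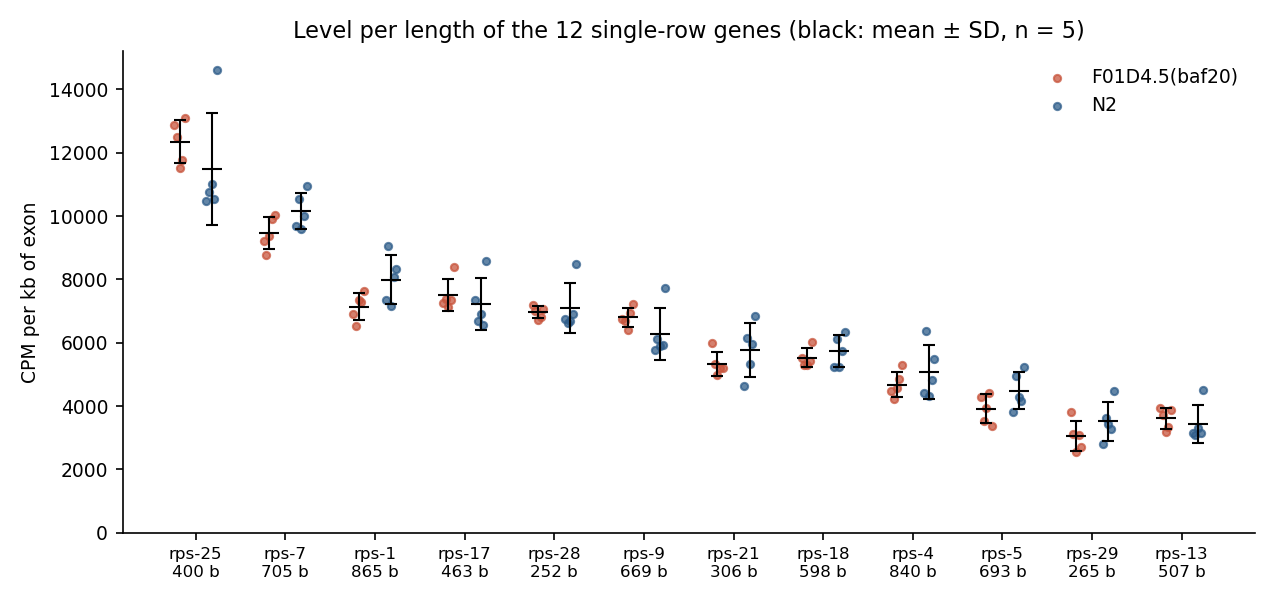
CPM per kb of annotated exon for the 12 single-row genes in the order of the N2 mean, with the exon length in bases under each symbol. Red points left are the F01D4.5(baf20) libraries, blue points right the N2 libraries, and black bars the mean ± SD (n = 5 each). rps-25 lies highest and rps-29 and rps-13 lowest, and the 2 strains overlap for every gene.

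Across the single-row genes, certain libraries were often the highest or the lowest of their strain. N2 library 5 had the highest CPM of all 10 libraries in 10 of the 12 single-row genes and was above the 10-library mean of log2 CPM in 12 of 12, by a median of 0.26. In the other 2 genes, rps-1 and rps-4, N2 library 2 was the highest. F01D4.5(baf20) library 5 was the highest of its strain in 7 genes and above the 10-library mean in 9 of 12, but it was the lowest of all 10 for rps-5. F01D4.5(baf20) library 3 was above the mean in 0 of 12 and the lowest of its strain in 8. The coefficient of variation ran from 2.71% (rps-28) to 15.8% (rps-29) over the F01D4.5(baf20) libraries and from 5.68% (rps-7) to 17.6% (rps-29) over the N2 libraries. Library 5 of each strain is also the one with the highest epidermis and lowest oocyte marker sums of its strain, and the part of this in the rps values was not tested.

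With N2 library 5 left out, 4 of the 23 tested rps genes had groups that did not overlap, all with higher values in F01D4.5(baf20). They were rps-9, rps-25, rps-8 and rps-24. N2 library 5 was the highest N2 library in each of these 4, so leaving it out could separate their groups in that direction only. The 4 genes share the same libraries and are not independent of each other. Over all 12331 genes this held for 1.75% in that direction and for 1.24% in the other. The number of rps genes at an unadjusted p under 0.05 was then 5, where 6.95% of all tested genes reached that level, and the number past the adjusted threshold stayed 0. Besides those 4 genes the fifth was rps-12, with a lower value in F01D4.5(baf20). Leaving out F01D4.5(baf20) library 1 or N2 library 1 separated the groups in rps-12 alone of the 23, against 1.75% and 2.72% of all genes in that order. Leaving out F01D4.5(baf20) library 5 separated them in 0 of 23, against 6.08% of all genes, and leaving out any of the other 6 libraries also in 0 of 23.

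**Figure D4:**
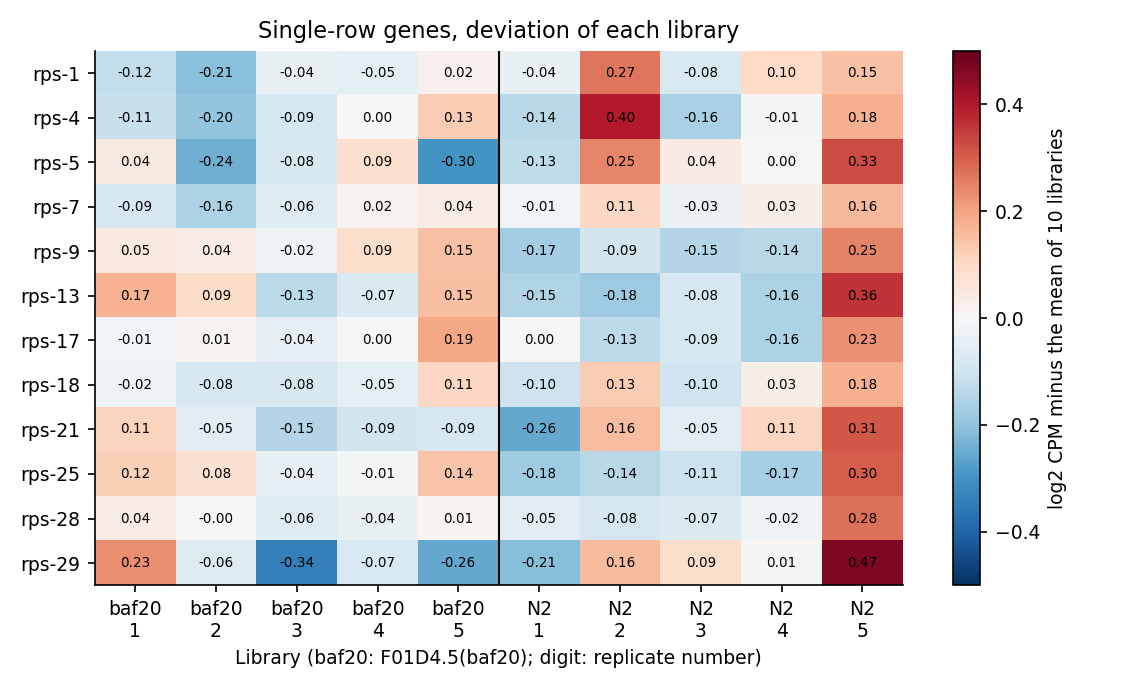
Log2 CPM of each single-row gene in each library minus the mean over the 10 libraries, with F01D4.5(baf20) libraries 1 to 5 on the left and N2 libraries 1 to 5 on the right of the black line. N2 library 5 is above the mean for 12 of 12 genes and F01D4.5(baf20) library 3 for 0 of 12.

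The multi-row genes are read as values of the row that carried their counts. Of the 19, 11 were tested, with 6 positive and 5 negative log2 fold changes and a median of 0.07. Their summed share of all counts was 0.0182 ± 0.00206% in F01D4.5(baf20) and 0.0187 ± 0.00249% in N2 (SD, n = 5 each).

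The smallest p of the 23 tested genes was that of rps-12, whose protein sits in the head and whose Drosophila homologue is needed for competition between cells that differ in ribosomal protein gene dose. The gene lies on chromosome III from 5679298 to 5680187 on the plus strand, and row F54E7.2.3 held 99.98% of its counts. In the current annotation this row has 0 bases outside the other transcripts of the gene, and the part of this in the values was not tested. The gene had 43.2, 39.0, 34.7, 33.2 and 38.2 CPM in F01D4.5(baf20), against 42.2, 50.02, 47.4, 53.5 and 68.3 CPM in N2. Only F01D4.5(baf20) library 1 and N2 library 1 overlapped. The averages were 37.7 ± 3.91 CPM in F01D4.5(baf20) and 52.3 ± 9.86 CPM in N2 (SD, n = 5 each), a log2 fold change of -0.47 ± 0.139 (SE; unadjusted p = 0.00592, adjusted p = 0.608). Its value lay between -0.54 and -0.36 when any 1 library was left out, with an unadjusted p under 0.05 in each of those 10 fits.

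The other genes of the head with several rows and enough counts were rps-10 and rps-20, whose proteins are ubiquitinated in mammals when ribosomes collide. rps-10 had 3.89, 4.41, 3.93, 4.94 and 4.18 CPM in F01D4.5(baf20), against 4.36, 3.62, 3.67, 2.999 and 5.30 CPM in N2. rps-20 had 6.24, 5.91, 9.67, 6.47 and 6.10 CPM in F01D4.5(baf20), against 6.26, 9.41, 5.29, 5.999 and 4.05 CPM in N2. For both genes the N2 libraries held the lowest value and the groups overlapped throughout. The log2 fold changes were 0.10 ± 0.185 for rps-10 (SE, adjusted p = 0.950) and 0.15 ± 0.235 for rps-20 (SE, adjusted p = 0.949). Without N2 library 5 they were 0.22 for rps-10 and 0.03 for rps-20. Counts of rps-20 may include reads of cel-mir-354, which lies within it on the same strand.

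Among the genes of the body, rps-24 had the largest fold change of the 23. Its row T07A9.11.1 held all counts of the gene, which lies on chromosome IV from 385887 to 386606 on the plus strand. This row has 1 base outside the other current transcripts of the gene, and the part of this in the values was not tested. The gene had 34.3, 35.8, 21.6, 32.4 and 28.5 CPM in F01D4.5(baf20), against 14.6, 11.6, 18.5, 7.63 and 34.3 CPM in N2. N2 library 5 lay among the highest F01D4.5(baf20) libraries, while the other 4 N2 libraries lay below all 5 of that strain. The averages were 30.5 ± 5.69 CPM in F01D4.5(baf20) and 17.3 ± 10.3 CPM in N2 (SD, n = 5 each), a log2 fold change of 0.82 ± 0.345 (SE; unadjusted p = 0.0375, adjusted p = 0.835). Without N2 library 5 the value was 1.22, with an unadjusted p of 0.000556 and an adjusted p of 0.261. Without both libraries numbered 5 it was 1.25, with an adjusted p of 0.112, the smallest of any rps gene under any alternative tried. The unadjusted p was under 0.05 in 3 of the 10 fits that left out 1 library.

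The body protein encoded by rps-8 gave the next largest positive value. Row F42C5.8a held 99.5% of its counts. Its levels were 12.2, 10.1, 8.16, 10.2 and 8.14 CPM in F01D4.5(baf20), against 6.36, 8.06, 7.02, 4.36 and 10.6 CPM in N2. All F01D4.5(baf20) libraries were above N2 libraries 1 to 4, and N2 library 5 was the second highest of the 10. Between strains this was a log2 fold change of 0.43 ± 0.226 (SE) at an adjusted p of 0.890, and without N2 library 5 it was 0.60 with an unadjusted p of 0.0149.

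The gene rps-30 encodes a protein that is made fused to a ubiquitin-like protein. It had 15.8, 16.3, 14.8, 16.4 and 13.0 CPM in F01D4.5(baf20), against 14.3, 21.3, 15.98, 19.8 and 22.0 CPM in N2. The 3 highest libraries were all N2, and the lowest was F01D4.5(baf20) library 5. On the log2 scale the strains differed by -0.29 ± 0.147 (SE, adjusted p = 0.879), and -0.17 without both libraries numbered 5.

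**Figure D5:**
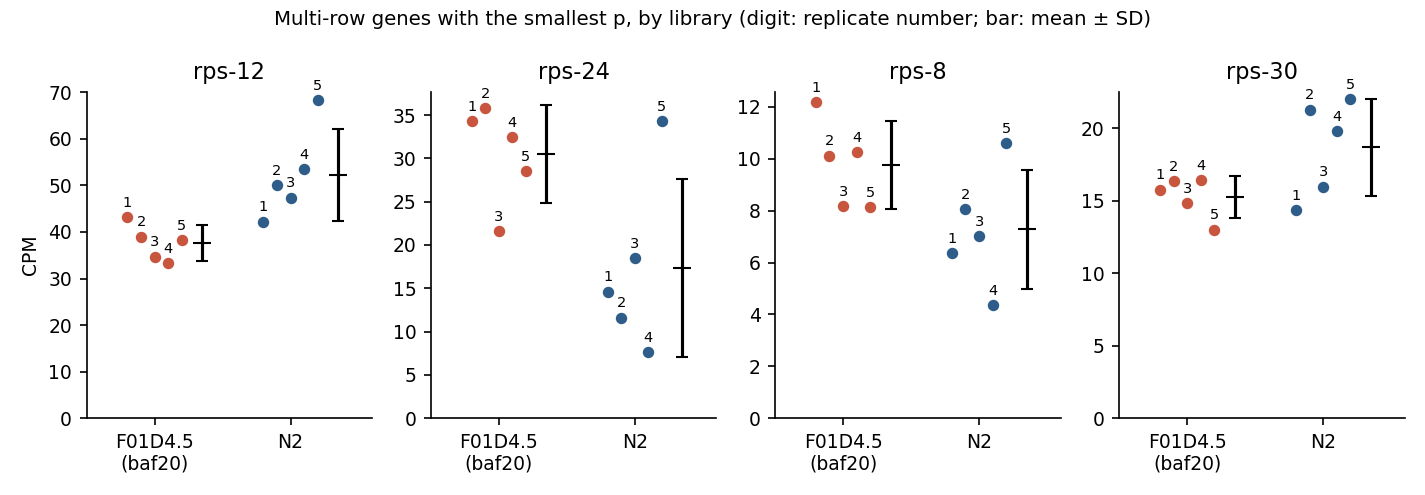
CPM by library of the 4 multi-row genes with the smallest unadjusted p, with F01D4.5(baf20) libraries left in red and N2 libraries right in blue, the replicate number at each point and the mean ± SD beside each group (n = 5 each). In rps-24 and rps-8, N2 library 5 lies among the F01D4.5(baf20) libraries and N2 libraries 1 to 4 below them.

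The protein of rps-6, in the body, is the best known target of S6 kinase, the growth-regulated kinase downstream of TOR. Row Y71A12B.1c.1 held 97.1% of the counts of its gene. It had 56.3, 49.9, 44.95, 45.3 and 59.3 CPM in F01D4.5(baf20), against 60.2, 56.5, 51.0, 45.99 and 59.4 CPM in N2. The highest and the lowest library of the 2 strains lay close together. This gave a log2 fold change of -0.09 ± 0.119 with its SE and an adjusted p of 0.939, and -0.15 without F01D4.5(baf20) library 5.

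The protein of rps-11 also lies in the body. The gene had 10.03, 8.92, 7.76, 9.88 and 8.36 CPM in F01D4.5(baf20), against 10.4, 9.20, 12.2, 8.27 and 21.6 CPM in N2. A single library, N2 library 5, was far above the other 9. Between strains this was a log2 fold change of -0.45 ± 0.249 (SE) at an adjusted p of 0.893, and without both libraries numbered 5 it was -0.13.

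The proteins of rps-26 and rps-27 lie on the platform, where that of rps-26 contacts the messenger RNA upstream of the start codon. rps-26 had 2.15, 1.00, 2.62, 1.26 and 1.13 CPM in F01D4.5(baf20), against 1.997, 1.45, 2.70, 2.27 and 2.70 CPM in N2. rps-27 had 6.24, 6.51, 6.25, 5.03 and 5.31 CPM in F01D4.5(baf20), against 4.63, 5.48, 4.32, 3.91 and 6.54 CPM in N2. In rps-26 the 3 lowest libraries were F01D4.5(baf20), in rps-27 the 3 lowest were N2, and in both genes the highest was an N2 library. The log2 fold changes were -0.44 ± 0.310 for rps-26 (SE, adjusted p = 0.903) and 0.24 ± 0.177 for rps-27 (SE, adjusted p = 0.906). Without both libraries numbered 5 they were -0.27 for rps-26 and 0.39 for rps-27. The values of rps-26 rest on 10 to 26 counts per library.

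The body protein of rps-22 completes the tested set. The gene had 7.47, 7.415, 11.6, 10.2 and 4.635 CPM in F01D4.5(baf20), against 12.1, 8.79, 5.61, 6.27 and 6.75 CPM in N2. The groups were mixed from the lowest library, an F01D4.5(baf20) one, to the highest, an N2 one. On the log2 scale the strains differed by 0.07 ± 0.278 (SE, adjusted p = 0.977), and 0.16 without both libraries numbered 5.

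The other 8 multi-row genes had too few counts for any statement on the strains. Proteins of the decoding centre and the messenger RNA channel were among them. rps-23, rps-14 and rps-15 had 0 counts in all 10 libraries, where 3 counts in a library correspond to 0.271 to 0.331 CPM on unscaled library totals. rps-0, the homologue of the human laminin receptor RPSA, had 1 count over all libraries, rps-3, whose protein lines the messenger RNA entry, had 2, and rps-2 had 4. The 4 counts of rps-2 were all in N2. rps-16, in the head, had 5 counts in F01D4.5(baf20) and 5 in N2. rps-19, also in the head, had 6, 12, 1, 4 and 3 counts in F01D4.5(baf20), against 1, 2, 1, 1 and 3 counts in N2, and 12 of its 34 counts came from 1 library. These values count reads assigned to rows and do not measure whether the genes were expressed.

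Genes around the small subunit were taken from lists of ribosome assembly, RNA polymerase I, translation initiation and elongation, and growth signalling. No gene of these lists passed the test at an adjusted p under 0.05. Of the listed genes found by symbol, 12 of 28 for assembly, 4 of 7 for RNA polymerase I and 12 of 29 for initiation were multi-row genes. For elongation these were 9 of 10 and for growth signalling 9 of 15. Values of such genes are read as values of rows, and the medians below take both kinds together. Of 34 genes for ribosome assembly, 19 were tested, 0 had an unadjusted p under 0.05, and the median log2 fold change was 0.03. Of 8 genes for RNA polymerase I, which transcribes ribosomal RNA, 5 were tested with a median of 0.14. The subunit gene rpac-19, a multi-row gene, had 5.83 ± 1.90 CPM in F01D4.5(baf20) and 3.02 ± 1.79 CPM in N2 (SD, n = 5 each), with an unadjusted p of 0.0277.

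Of 32 initiation factor genes, 24 were tested, with 21 positive and 3 negative values, a median of 0.06 and 0 at an unadjusted p under 0.05. Over all tested genes 6559 values were positive and 5772 negative, with a median of 0.02. The smallest p was that of eif-3.H, a subunit of initiation factor eIF3, with 358 ± 18.7 CPM in F01D4.5(baf20) and 319.9 ± 23.9 CPM in N2 (SD, n = 5 each). Of 12 elongation and release factor genes, 5 were tested, with a median of 0.08 and 0 at that level. Since 9 of the 10 found were multi-row genes, these are mostly values of rows. Of 15 genes of growth signalling, 12 were tested with a median of 0.03. The RAG GTPase gene raga-1, an activator of TOR, had 187 ± 7.65 CPM in F01D4.5(baf20) and 158 ± 21.9 CPM in N2 (SD, n = 5 each), with an unadjusted p of 0.0389 and an adjusted p of 0.835. The scaffold protein gene rack-1 and the ubiquitin fusion gene ubl-1, whose products belong to the small subunit without an rps- symbol, had too few counts to be tested. Both are multi-row genes, so these counts do not measure whether they were expressed.

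Of the single-row genes of the large subunit, 18 were tested, with a median of -0.02 and 1 lower value at an unadjusted p under 0.05. Of its multi-row genes, 25 were tested, with a median of -0.11, 2 higher and 7 lower values at that level, where 3.52% of all tested genes had higher and 2.24% lower values, and 0 past the adjusted threshold. The difference between the subunits was not tested.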

How the data were processed

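Libraries were made from whole-worm RNA of 5 F01D4.5(baf20) and 5 N2 samples, after QIAzol and miRNeasy extraction, with the Illumina TruSeq Stranded mRNA kit, per the labels' protocols. Samples were grouped by the strain label. The authors deposited whole-number counts, not normalized, for 57827 rows per sample, most of them transcripts. CASAVA, HISAT2, HTSeq and DESeq2 and the builds ce10 and ce11 are named, without versions or roles, per the submitters' processing notes. The strand setting and the treatment of reads that fit several rows are not given in the sources used here. Row names were matched to the Ensembl release 115 annotation of WBcel235 (57217 rows, 99.7% of counts, 31 of 31 symbols found) and the counts summed to 46746 genes. Rows without a match were kept under names taken from the rows and are among these 46746. No row was a sum of reads that were assigned to no gene.

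Genes were kept by filterByExpr (minimum count 10, minimum total 15; 12331 genes), scaled by TMM and tested with the quasi-likelihood test of edgeR 4.0.16 (R 4.3.3, robust, two-sided, strain as the only term), with Benjamini-Hochberg adjustment over all tested genes at 0.05. The fit was tested on simulated data. A standard error is the log2 fold change divided by the root of its F value. CPM use TMM-scaled library totals, and log CPM a prior count of 2. Alternatives were DESeq2 1.42.0, other scalings and filters, rows as deposited, a replicate block and libraries left out. Samples of a strain are biological replicates by the design text of the series, and p-values weigh the strain difference against the spread between them. Limits from counts cover counting error only.

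Values in every library are given for the 6 single-row genes with the smallest p, those with the 2 highest and 2 lowest levels per length, and every multi-row gene with at least 10 counts in 5 libraries. From each further gene list at most 3 genes with the smallest p could be named. Members, gene lists and rules were chosen with earlier results of these data known. No sequence is printed because no sequence file was used here.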

Additional observations from a re-analysis of the deposited data

Results flagged for a closer look

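In 7 of 48 groups of 5 libraries (each tested gene, and the summed share of the single-row genes, in each strain), 1 library stood apart from the other 4 by Dixon's test, with a gap above 0.71 of the group's range. Chance flags about 1 in 20 groups, but the groups share the same libraries, so their flags are not independent of each other. In 2 groups this was F01D4.5(baf20) library 5, the highest of its strain, with 3887 CPM for rps-17 where the next highest library had 3417 CPM, and 3609 CPM for rps-18 (next 3300.1 CPM). In 4 groups it was N2 library 5, also the highest of its strain, with 5175 CPM for rps-9 (next 4093 CPM), 2281 CPM for rps-13 (next 1674 CPM), 5848 CPM for rps-25 (next 4402 CPM) and 2139.5 CPM for rps-28 (next 1738 CPM). The libraries numbered 5 also had the highest summed epidermis markers of their strains, 281 CPM in F01D4.5(baf20) and 612 CPM in N2, and the part of this in the rps values was not tested. In the remaining group F01D4.5(baf20) library 3 had 9.67 CPM for rps-20 (next 6.47 CPM).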

How the results depend on the processing

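The number of rps genes past the adjusted threshold was 0 under all 21 alternatives. The number of all genes past it, 8 in the main analysis, was 33 with DESeq2, 5 without a filter on low counts, 2 with F01D4.5(baf20) libraries 1 and 2 summed, 18 without both libraries numbered 5, and 2 to 13 with any 1 library left out. The number of rps genes at an unadjusted p under 0.05 was 2 in the main analysis and 4 without a filter. Of those 4, only rps-12 and rps-24 were among the genes tested in the main analysis, and the others had too few counts for it. The number was 1 with those libraries summed, 5 without both libraries numbered 5, and 1 to 5 with any 1 library left out. The cause of these changes was not tested. The median log2 fold change of the single-row genes stayed between -0.11 and -0.03.

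Same-numbered libraries of the 2 strains deviated together for number 5 only. The correlations across genes were 0.153, 0.145, 0.00186, -0.131 and 0.822 for numbers 1 to 5. The 2 libraries numbered 5 thus shared a deviation, while the other numbers did not pair the samples. The main fit, with strain as the only term, leaves this shared deviation in the spread between libraries. With the replicate block, 6 of all genes and 0 rps genes passed, and 2 rps genes had an unadjusted p under 0.05.

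Of 481 values of single rps genes under the alternatives, 7 changed sign, in rps-20, rps-22 and rps-28, and 0 passed the adjusted threshold. At these depths 3 counts in a library correspond to 0.271 to 0.331 CPM on library totals without the TMM scaling of the other CPM.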
